A study of Mus musculus with 11 samples.

Results

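The 3 libraries described here held RNA of muscle stem cells (MuSCs) from young mice, cultured without treatment. They were chosen by label from a series of 11 samples, as the untreated libraries whose age was given as 2-4 months, in a count table of 5 untreated libraries. The remaining samples were 2 untreated libraries from mice of 24 months, 3 young and 3 aged libraries of cells treated with prostaglandin E2 (PGE2), and they are not analysed here. The series belongs to a study of the primary cilium, a sensory projection of the cell surface, on MuSCs in muscle regeneration and aging. All 3 young libraries came from hindlimb muscles of C57BL/6 mice, sorted by flow cytometry as cells without CD45, Sca1, CD31 and CD11b and with α7 integrin and CD34. The design text of the series gives 24 h on hydrogels, a step that neither the protocols of the untreated samples nor the RNA-seq methods of the study state. The medium was 20% fetal bovine serum, 40% F-10 and 40% of a low glucose medium that the labels write as DMD. RNA of 5000 to 10000 cells was amplified as cDNA before library construction. The labels name neither the animals nor the cultures behind each replicate, nor whether animals were pooled, so the spread between the libraries may be technical.

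MuSCs lie between the muscle fibre and its basement membrane and rest outside the cell cycle until the muscle is injured. Once plated, they enter the cell cycle, make the myogenic factor Myod1 and become myoblasts, which later leave the cycle, make Myog and fuse into fibres. Pax7 is the transcription factor that marks the resting and the dividing stem cell and that is lost as differentiation proceeds.

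The deposited values are estimated counts, the number of sequence reads assigned to each gene, which need not be whole where a read fits several genes. Total counts were 7110767, 3356780 and 7198596 in replicates 1, 2 and 3, and values for single libraries are given in that order throughout. To compare genes with each other, each count was divided by the length of the gene's exons and scaled to a sum of 1000000 per library, which gives TPM (transcripts per 1000000 transcripts), here the level of a gene. Means are given with the standard deviation (SD) of the 3 libraries, and genes that lead a list do so by mean level. A gene was taken as detected with at least 3 counts in each library, as detected in part with 3 counts in some of them, and as not detected with fewer than 3 counts in each. The floor of 3 counts corresponds to 0.422, 0.894 and 0.417 CPM (counts scaled to a total of 1000000), and floors and intervals cover the error of counting alone, because amplified cDNA without molecular tags was sequenced. Replicate 2, with the smallest total, had the highest floor. The 1029 olfactory receptor genes of the table, which MuSCs are not known to use, served as a measure of stray reads. Of these, 582, 177 and 104 had a count, and the 99th percentile of their level, taken as the background level, was 4.60, 5.26 and 1.48 TPM. Stray counts thus reached the most genes in replicate 1. A level at or below the background level of its library could not be told from stray reads.

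The sex of the cells did not match across the libraries. The labels give no sex, and the reporting summary of the study lists male mice. Xist, the RNA of the inactive X chromosome of female cells, had levels of 462, 348 and 91.2 TPM. It was present in each library and lowest in replicate 3. Of the genes on the Y chromosome, Kdm5d had 187 counts in replicate 3, Ddx3y 141, Eif2s3y 116 and Uty 53, and none of them had a count in replicates 1 and 2. Replicates 1 and 2 therefore carried the female marker alone, and replicate 3 carried markers of either sex. Over all 171 genes placed on the Y chromosome the share of counts was 0.00988, 0.00576 and 0.0170%, so reads assigned to other, mostly multi-copy, Y genes occurred in each library. Leaving out any library moved none of the totals of detected, undetected, background and abundant genes by more than 1.5 times. A mean of 3 libraries cannot move by as much as their SD when 1 is left out. No such check was therefore possible for the means of the 5 markers and the shares of counts. The mean level of Pax7 was 160 TPM without replicate 1, 130 TPM without replicate 2 and 191 TPM without replicate 3.

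Of the 5 genes that mark these cells and their division, all were detected and all stood above the background level in each library. Pax7 (ENSMUSG00000028736, chr4:139737062-139833528, mm10) had levels of 161, 220.3 and 99.3 TPM. Myf5 (ENSMUSG00000000435, chr10:107482908-107486134), a myogenic factor that marks committed stem cells, had 64.9, 123 and 107 TPM. Pax7 was lowest in replicate 3, and Myf5 was lowest in replicate 1. Myod1 (ENSMUSG00000009471, chr7:46376474-46379099), the myogenic factor that appears with activation, had levels of 611, 773 and 676 TPM. Mki67 (ENSMUSG00000031004, chr7:135689784-135716361), a nuclear protein of dividing cells, had 999.7, 797 and 563 TPM. The level of Myod1 stayed between 611 and 773 TPM, and that of Mki67 was highest in replicate 1 and lowest in replicate 3. Cdh15 (ENSMUSG00000031962, chr8:122847966-122867397), the M-cadherin by which MuSCs adhere to fibres, had levels of 12.5, 10.1 and 15.2 TPM. Ordered by mean level, Mki67 (787 ± 219 TPM, SD, n = 3) and Myod1 (687 ± 81.2) led, and their ranges over the libraries overlapped. Pax7 (160.3 ± 60.5) and Myf5 (98.3 ± 30.1) followed, also with overlapping ranges, and Cdh15 (12.6 ± 2.55) stood lowest, apart from the other markers in each library. Without replicate 3, the library with Y-linked counts, the mean level was 898 TPM for Mki67, 692 TPM for Myod1, 191 TPM for Pax7, 94.2 TPM for Myf5 and 11.3 TPM for Cdh15. The order of the leading genes rested on the libraries taken: without replicate 1, the mean of Myod1 (725 TPM) stood above that of Mki67 (680.0 TPM), and in replicate 3 Myod1 exceeded Mki67 and Myf5 exceeded Pax7. Across all 21171 protein-coding genes with a length the median level was 1.74 TPM.

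Cd34, a sialomucin of the stem cell surface, had levels of 17.9, 32.1 and 50.6 TPM. Itga7, the α7 integrin chain that binds laminin, had 22.2, 25.8 and 41.9 TPM. These 2 genes were highest in replicate 3. None of the genes of the proteins gated out stood above the background level in each library: Ly6a (Sca1) had 11, 0 and 1 counts, Pecam1 (CD31) 24, 10 and 3 counts, Itgam (CD11b) 12, 0 and 0 counts and Ptprc (CD45) 8, 0 and 0 counts. Pecam1 alone of these reached 3 counts in each library, and most of the counts fell in replicate 1, the library with the most counts on olfactory receptor genes.

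**Figure D1:**
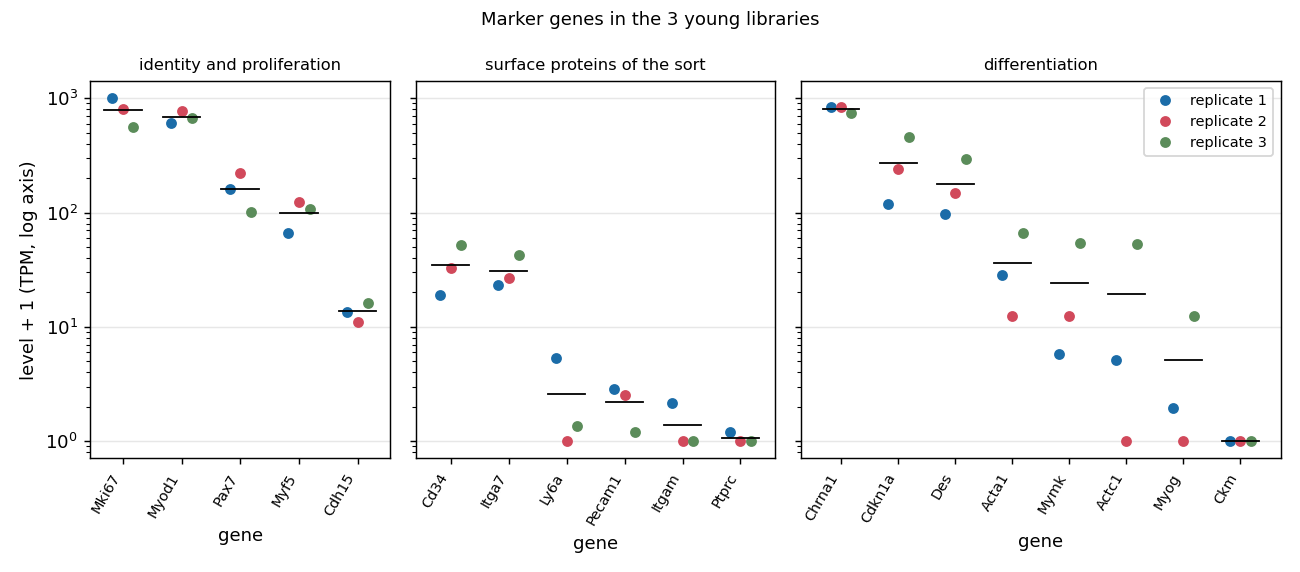
Level plus 1 (TPM, log axis) of the marker genes in each of the 3 young libraries, with a line at the mean. Mki67, Myod1, Pax7 and Myf5 lie far above the genes of the proteins gated out, and Acta1, Actc1, Mymk and Myog are highest in replicate 3.

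A list of 44 genes known from MuSCs of various states held 37 detected genes, 5 detected in part and 2 not detected. The share detected was 84.1%, against 49.5% of all protein-coding genes, which serves as the measure for later lists too. The median level was 13.9 TPM against 1.74 TPM over all protein-coding genes. Sdc4, a heparan sulfate proteoglycan of the MuSC surface, led with 552, 653 and 1038 TPM. Met, the receptor of hepatocyte growth factor, had 596, 468 and 365 TPM. Sdc4 was highest in replicate 3 and Met in replicate 1. Itgb1, the β1 integrin chain, varied little, with 448, 455 and 442 TPM, as did Cav1, the coat protein of caveolae, with 176, 183 and 211 TPM. Vcam1, an adhesion protein used to sort MuSCs, had 94.0, 88.9 and 89.0 TPM. Among members picked for their lower values, Calcr, the calcitonin receptor of quiescent MuSCs, had 8, 0 and 12 counts. Chrdl2 had levels of 3.41, 6.10 and 13.1 TPM, Heyl of 2.44, 0 and 6.02 TPM and Spry1, an inhibitor of growth factor signaling, of 16.0, 7.68 and 11.1 TPM. Gas1, a growth arrest gene, had 10.7, 10.2 and 4.98 TPM. In bulk RNA, fewer cells that hold a transcript and less of it per cell cannot be told apart. Dbx1 had 1 count in replicate 1 and none elsewhere, and Cdkn1c, a cell cycle inhibitor, had 0 counts in each library, which allows levels of up to 0.706, 1.43 and 0.657 TPM.

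Among 44 myogenic regulators, 30 were detected (68.2% against 49.5% of all protein-coding genes) and 4 not detected, with a median level of 15.2 TPM. After Myod1 came, by mean level, Id2, an inhibitor of the E proteins that pair with Myod1, with levels of 219, 229 and 144 TPM. Id3 and Id1, its relatives, had 155, 130 and 138 TPM and 109, 98.7 and 114 TPM. Id2 was lowest in replicate 3, while Id1 and Id3 stayed within a narrow range. Runx1, a transcription factor of injured muscle, had 156, 134 and 153 TPM. The E protein gene Tcf12 had 56.2, 45.2 and 49.6 TPM, Tcf3 25.1, 27.1 and 34.5 TPM and Tcf4 20.5, 19.9 and 21.9 TPM. Tead1, the effector of Hippo signaling in muscle, had 149, 151 and 140.0 TPM. Of the MEF2 factors, which act with the myogenic factors, Mef2d and Mef2a were detected (73.5, 98.4 and 100.4 TPM and 60.5, 54.1 and 69.1 TPM). Mef2c had 24, 5 and 0 counts and Mef2b none. Pax3, the relative of Pax7 that marks embryonic and some adult progenitors, had levels of 3.33, 0.314 and 4.83 TPM, at or below the background level except in replicate 3. Of the 4 genes not detected, Twist1 had 1 count and Mef2b, Pitx1 and Tcf21, the last a marker of fibroadipogenic cells, had 0 counts in each library.

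Myog, which drives terminal differentiation, had 3, 0 and 38 counts, or levels of 0.963, 0 and 11.3 TPM. It passed the background level in replicate 3 alone. Myf6, the myogenic factor of fibres, had 1, 2 and 7 counts. Mymk, the membrane protein needed for myoblast fusion, had 15, 18 and 181 counts and levels of 4.76, 11.6 and 53.5 TPM, and its partner Mymx had 0 counts in each library, which allows levels of up to 1.40, 2.83 and 1.30 TPM. Des, the intermediate filament of muscle, had levels of 96.9, 146 and 292 TPM. Acta1, skeletal α-actin, had 27.5, 11.4 and 65.9 TPM, and Actc1, the cardiac actin made first in new fibres, had 4.15, 0 and 51.6 TPM. Cdkn1a, the inhibitor of cyclin-dependent kinases that holds differentiating myoblasts out of the cycle, had 118, 239 and 458 TPM. All of Myog, Mymk, Des, Acta1, Actc1 and Cdkn1a were highest in replicate 3. They were so with scaling over all genes, without mt-Rnr1, mt-Rnr2 and Gm42418, and with the factors of edgeR and DESeq2. These genes were picked in part for this pattern: over the whole list for differentiation and fusion, 14 genes were highest in replicate 3, 11 in replicate 1 and 8 in replicate 2. Of all protein-coding genes with a count, 4092 were highest in replicate 3, 8726 in replicate 1 and 4561 in replicate 2. Among 5402 genes with at least 20 TPM on average and 10 counts in each library, these numbers were 1628, 2099 and 1675. Replicate 3 also held the lowest levels of Pax7 and Mki67 and the Y-linked counts, and the part of these in the difference was not tested.

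Of the 36 genes of that list, 23 were detected (63.9% against 49.5% of all protein-coding genes). The median level was 10.6 TPM and the summed level 2276, 2355 and 2716 TPM. Chrna1, the α subunit of the muscle acetylcholine receptor, was its most abundant gene with 842, 839 and 739 TPM. Cdon, a cell surface receptor that promotes differentiation and binds Hedgehog ligands, had 431, 343 and 296 TPM. These 2 genes did not share the pattern of Myog, and both were lowest in replicate 3. Tnnt2, the cardiac troponin T of early myotubes, had 60.7, 69.5 and 76.7 TPM. Myh3, the embryonic myosin heavy chain, had 15, 6 and 86.7 counts, of which most fell in replicate 3. Of 20 genes of the mature fibre, 9 were detected (45% against 49.5% of all protein-coding genes), and the median level was 1.83 TPM. Eno3, the muscle enolase, made up most of their sum with 493, 484 and 535 TPM. The giant sarcomere proteins Neb and Ttn, whose long transcripts collect many reads, had 26.3, 22.9 and 23.4 TPM and 24.6, 23.9 and 10.4 TPM. Ckm, the muscle creatine kinase, and Mb, myoglobin, had 0 counts in each library, which allows Ckm levels of up to 0.494, 0.999 and 0.460 TPM and Mb levels of up to 0.964, 1.95 and 0.898 TPM. Myh7 had 1, 0 and 1 counts and Pvalb 1, 0 and 0, and of the adult fast myosins Myh1 had 29.6, 1 and 38.3 counts, highest in replicate 3 by level, while Myh2 and Myh4 were read in replicate 1 only (11.1, 0 and 0 counts and 8, 0 and 0 counts).

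Promoters of 16182 of the 21171 protein-coding genes were matched by symbol to RefSeq sequences of build GRCm38.p6, each 300 bases long with 250 before and 50 after the annotated start. The CG dinucleotide, which is rare in the genome outside promoters of widely used genes, had a median of 22 per promoter (quartiles 15 and 30) among 8337 detected genes, 7 (3 and 17) among 3301 genes detected in part, and 3 (1 and 8) among 4544 genes not detected. Among detected genes it was 19 at mean levels under 10 TPM, 23 from 10 to 100 TPM, 24 from 100 to 1000 TPM and 26 at or above 1000 TPM. Most of the difference thus lay between detected and undetected genes. The TATA box, searched as TATAAA on either strand, was in 6.43% of promoters of detected genes and 22.7% of those not detected, against 12.5% of all. Among the 49 matched genes at or above 1000 TPM the share was 18.4%, above that of all. A match describes the letters of this window and says nothing of binding. Promoters of 4 muscle regulators or effectors at different levels are shown to let the CG content be seen, with CG in capitals: Pax7 (chr4:139832919-139833218, minus strand, 17 CG, mean level 160.3 TPM), Myf5 (chr10:107486085-107486384, minus strand, 3 CG, 98.3 TPM), Myog (chr1:134289754-134290053, plus strand, 9 CG, 4.10 TPM) and Ckm (chr7:19410844-19411143, plus strand, 7 CG, 0 TPM). Each is written 5′ to 3′ on its gene's strand. Myf5, with 3 CG, was detected at a high level, so the relation across genes does not hold for each of them. Of these 4, Myf5 alone held TATAAA on either strand. The table holds no entry for Myod1.
Pax7: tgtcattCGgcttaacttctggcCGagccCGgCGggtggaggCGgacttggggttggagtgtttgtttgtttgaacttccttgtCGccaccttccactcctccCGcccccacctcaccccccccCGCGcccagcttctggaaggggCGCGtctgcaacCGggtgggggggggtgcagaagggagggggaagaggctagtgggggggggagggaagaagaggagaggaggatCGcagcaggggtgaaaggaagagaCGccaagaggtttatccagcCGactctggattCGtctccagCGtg
Myf5: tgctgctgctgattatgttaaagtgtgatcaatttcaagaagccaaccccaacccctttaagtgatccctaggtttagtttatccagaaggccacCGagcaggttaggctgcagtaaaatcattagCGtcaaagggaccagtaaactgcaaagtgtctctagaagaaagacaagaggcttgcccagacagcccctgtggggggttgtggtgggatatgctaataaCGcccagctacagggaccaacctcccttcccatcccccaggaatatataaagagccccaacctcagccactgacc
Myog: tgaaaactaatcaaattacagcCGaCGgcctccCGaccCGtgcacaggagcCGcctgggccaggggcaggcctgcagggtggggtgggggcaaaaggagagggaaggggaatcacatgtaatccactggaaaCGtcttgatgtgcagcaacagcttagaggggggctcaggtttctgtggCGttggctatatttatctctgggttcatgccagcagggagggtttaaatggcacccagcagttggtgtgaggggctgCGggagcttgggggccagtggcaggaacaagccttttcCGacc
Ckm: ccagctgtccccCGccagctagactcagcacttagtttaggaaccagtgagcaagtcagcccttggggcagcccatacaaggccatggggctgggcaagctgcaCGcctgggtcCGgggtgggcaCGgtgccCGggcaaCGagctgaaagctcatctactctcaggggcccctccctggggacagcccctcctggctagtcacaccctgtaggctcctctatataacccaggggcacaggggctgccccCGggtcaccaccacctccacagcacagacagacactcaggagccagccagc

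**Figure D2:**
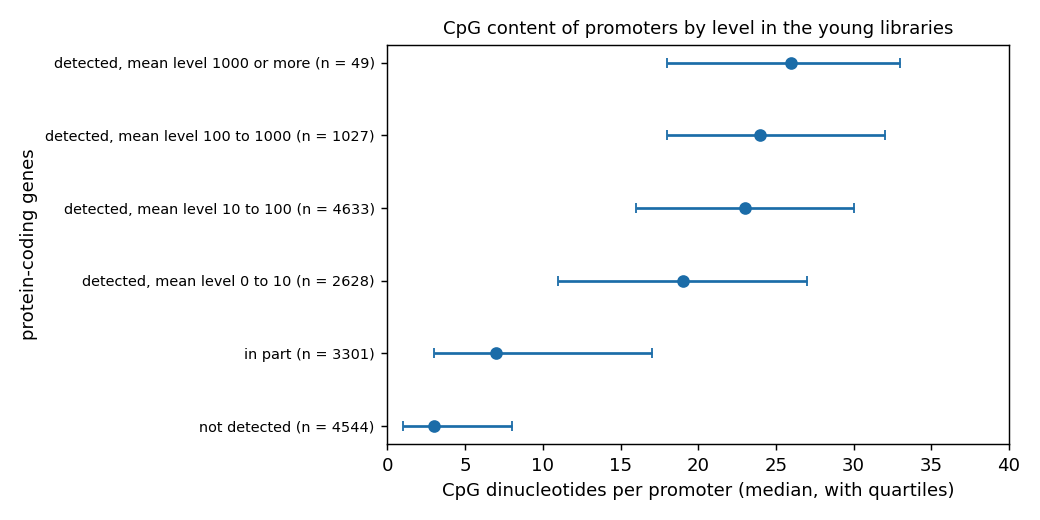
CG dinucleotides in 300 bases of promoter, as median (point) and quartiles (bar), for 16182 protein-coding genes grouped by detection and mean level (TPM) in the young libraries. The median is 3 for genes not detected and from 19 to 26 for detected genes.

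The most abundant transcripts were ribosomal and mitochondrial. mt-Rnr1, the small ribosomal RNA of mitochondria and the noncoding gene with the highest mean level, had levels of 60432, 75849 and 85618 TPM. mt-Rnr2, the large one, had 92027, 55148 and 51174 TPM. mt-Rnr1 was lowest and mt-Rnr2 highest in replicate 1. Gm42418, an unnamed noncoding gene on chromosome 17 known to collect reads of cytoplasmic ribosomal RNA, had 24526, 44175 and 85517 TPM. It took 1.32, 2.48 and 4.87% of all counts, a range wider than that of the mitochondrial RNAs. All genes of the mitochondrial genome together held 7.28, 6.07 and 6.11% of counts (mean 6.49 ± 0.689%, SD, n = 3), most of it on mt-Rnr1 and mt-Rnr2. For the shares of counts of gene classes, the widest 95% Wilson interval was 0.0338 percentage points to either side.

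Of the mitochondrial messenger RNAs, mt-Co1, a subunit of cytochrome oxidase, was highest with 9863, 8642 and 8651 TPM, ahead of mt-Cytb with 6938, 4694 and 4727 TPM and mt-Nd1 with 5086, 4702 and 3429 TPM. All 13 messenger RNAs held 1.32, 1.17 and 1.04% of counts. mt-Nd4l, which overlaps mt-Nd4, had 362, 0 and 396 counts, and the cause of the 0 in replicate 2 was not tested. Among nuclear genes for proteins, Tuba1b, an α-tubulin, had levels of 4639.9, 6151 and 6099 TPM, and Eef1a1, the elongation factor of translation, had 5638, 5407 and 4918 TPM. Hsp90ab1, the constitutive heat shock protein 90, had 4621, 5210.4 and 5795 TPM. Npm1, a nucleolar protein of ribosome assembly, had 5527, 4727 and 3874 TPM, Anp32b, a histone chaperone, 4454, 4716 and 4708 TPM, the ribosomal protein gene Rpl4 4271, 4036 and 3700.3 TPM and Actb, cytoplasmic β-actin, 3624, 3595 and 4289.8 TPM. None of these varied by as much as 2-fold between libraries.

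Several of the 20 most abundant genes are copies whose counts are uncertain. Gm10123 (15589, 15247 and 14414 TPM), Gm10275 (5641, 5815 and 3145 TPM) and Gm5611 (3938, 4097 and 3555 TPM) are processed pseudogenes, copies of messenger RNA set back into the genome. Rpl10-ps3 (4837, 5454 and 6475 TPM) and Rps12-ps3 (5105, 5253 and 3398 TPM) carry pseudogene names of ribosomal protein genes, and reads of the parent and the copy cannot be separated with certainty. Rpl10 itself had only 167, 200.1 and 196 TPM, below its copy in each library. The 85 ribosomal protein genes held 2.03, 2.49 and 2.03% of counts and 28 of their pseudogenes or copies 0.534, 0.604 and 0.523%. Gm26825, a long noncoding gene of unknown role, had 8089, 6474 and 6931 TPM. Gm10800, on chromosome 2 in a region of satellite repeats, had 14545, 3593 and 1565 TPM, far the highest in replicate 1, the library with the most stray counts.

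**Figure D3:**
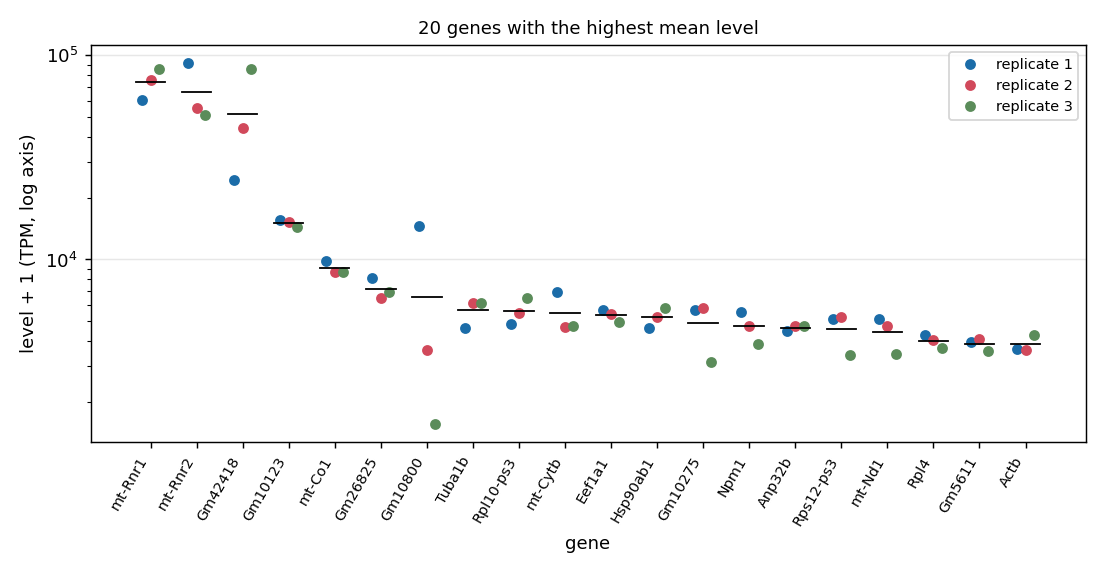
Level plus 1 (TPM, log axis) of the 20 genes with the highest mean level in each of the 3 young libraries, with a line at the mean. The ribosomal RNAs mt-Rnr1 and mt-Rnr2 and the gene Gm42418 lie above all others, and Gm10800 spreads most.

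The level was concentrated in few genes. The 10 most abundant genes held 10.8, 10.6 and 13.6% of counts and the 100 most abundant genes 26.2, 25.9 and 28.4%. Of all genes with a length, 12743 had a mean level of at least 1 TPM, 7428 of at least 10 TPM, 1450 of at least 100 TPM and 106 of at least 1000 TPM. The 1450 genes carried 76.8% of the summed level and the 106 genes 45.1%. Of 32976 gene identifiers, 11008 were detected, 6040 were detected in part and 15928 were not detected, among them 12236 with no count in any library. Of those with a length, 2991 reached 3 counts in replicate 1 alone, against 413 in replicate 2 alone and 459 in replicate 3 alone. Detection in replicate 1 alone thus went with the library in which the most olfactory receptor genes were read. A total of 8223 genes stood above the background level in each library.

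Protein-coding genes held 88.7, 88.7 and 86.6% of counts, and 10472 of 21171 (49.5%) were detected. Long noncoding RNA genes were detected less often: 126 of 1647 in the class of intergenic RNAs and 121 of 1788 in the antisense class, where counts are uncertain, since the sources used here do not say that reads were assigned by strand. Small RNA genes were nearly absent from the counts, with 1 of 1894 microRNA genes, 0 of 1382 small nuclear RNA genes and 2 of 1484 small nucleolar RNA genes detected. The RNA-seq methods of the study describe no step for small RNA, so this says nothing of their presence in the cells. Malat1, a nuclear long noncoding RNA, had levels of 3038, 2401 and 2127 TPM, and Gas5, the host of small nucleolar RNAs, 647, 589 and 332 TPM.

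In a list for the passage from G1 into DNA synthesis (G1/S), 44 of 45 genes were detected, with a median level of 64.4 TPM. Rrm2, a subunit of the enzyme that makes deoxynucleotides, led with 1528, 1632 and 1541 TPM. Ccnd1, the cyclin D1 that starts G1 progression, had 1242, 1482 and 1661 TPM and Myc, a growth-promoting transcription factor, 632, 699.8 and 789 TPM. Ccnd1 and Myc were highest in replicate 3, whereas Rrm2 varied by less than 10%. Pcna, the sliding clamp of DNA polymerase, had 638, 610.2 and 413 TPM. The replicative helicase genes Mcm2 to Mcm7 had mean levels from 86.6 TPM (Mcm2) to 239 TPM (Mcm3), each detected in every library. Cyclin E, which acts at the entry to S phase, was lower, with 25.9, 24.4 and 39.6 TPM for Ccne1 and 27.2, 25 and 16.2 TPM for Ccne2. The exception in the list was Mycn, with 5, 0 and 1 counts.

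All 34 genes of a list for G2 and mitosis (G2/M) were detected, with a median level of 87.3 TPM and a summed level of 4615, 4154 and 3469 TPM. Mki67 was its most abundant gene. Top2a, the topoisomerase that untangles chromosomes, was next by mean level, though not in replicate 3, with 448, 382 and 224 TPM. Tpx2, a spindle assembly factor, had 286, 306 and 265 TPM. Ccna2, cyclin A, had 319, 260.2 and 226 TPM, and Ccnb1, the mitotic cyclin B1, had 116, 80.1 and 73.7 TPM. Cenpe, a kinetochore motor, had 278, 214 and 147 TPM. The kinase gene Cdk1 had 67.9, 49.5 and 88.9 TPM, Aurkb 93.3, 88.2 and 125 TPM and Plk1 94.9, 146 and 102 TPM. Of the 34 genes, 16 were highest in replicate 1, 11 in replicate 2 and 7 in replicate 3. Replicate 1 also led in general, since of 5402 genes with a mean level of at least 20 TPM and at least 10 counts in each library 2099 were highest there, 1675 in replicate 2 and 1628 in replicate 3. The summed level was lowest in replicate 3, which had the highest levels of Cdkn1a and Myog, and whether these were linked was not tested. The 90 histone genes held 0.120, 0.156 and 0.175% of counts, and most of these transcripts lack a poly(A) tail.

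Of 17 inhibitors of the cycle or genes linked to quiescence, 13 were detected (76.5% against 49.5% of all protein-coding genes). Trp53, the p53 gene, had 446, 566 and 507 TPM and its target Ccng1 471, 351 and 316 TPM. Btg1, an antiproliferative gene, had 71.0, 62.9 and 41.5 TPM. Cdkn1b, the inhibitor p27, had only 10.5, 11.1 and 14.0 TPM, below Cdkn1a in each library. Cdkn2a, the gene of p16 and p19Arf, which marks senescent cells, had 1, 0 and 0 counts, at a floor of 1.23, 2.48 and 1.14 TPM. The retinoblastoma family was present, with 24.1, 16.0 and 15.5 TPM for Rb1, 33.0, 30.8 and 25.6 TPM for Rbl1 and 18.1, 11.1 and 10.3 TPM for Rbl2.

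Promoters of cell cycle genes were searched for 3 short sequences. The letters CCAAT, searched with the same letters on the opposite strand, were in 85.2% of 27 matched G2/M promoters and 63.9% of 36 matched G1/S promoters, against 38.7% of all 16182 matched promoters. TTTGAA, the core of the cell cycle homology element, was in 66.7% of G2/M, 13.9% of G1/S and 15.4% of all promoters. TTTCGCGC, an E2F recognition sequence, was in 13.9% of G1/S, 3.70% of G2/M and 0.414% of all promoters. None of these motifs contains another, though they share shorter runs of letters, and each was searched on both strands. The promoters of the 3 G2/M members with the highest mean level and an entry are shown for their CCAAT content, with CCAAT, or its opposite strand ATTGG, in capitals. They are those of Mki67 (chr7:135716330-135716629, minus strand, 3 matches), Top2a (chr11:99024140-99024439, minus strand, 6 matches) and Cenpe (chr3:135212313-135212612, plus strand, 1 match), 5′ to 3′ on the strand of the gene, from RefSeq on GRCm38.p6.
Mki67: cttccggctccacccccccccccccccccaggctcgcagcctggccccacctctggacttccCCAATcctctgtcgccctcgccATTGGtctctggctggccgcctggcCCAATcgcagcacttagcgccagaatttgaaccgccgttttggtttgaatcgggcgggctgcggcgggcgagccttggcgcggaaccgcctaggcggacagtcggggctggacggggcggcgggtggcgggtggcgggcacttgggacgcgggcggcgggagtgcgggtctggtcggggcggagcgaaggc
Top2a: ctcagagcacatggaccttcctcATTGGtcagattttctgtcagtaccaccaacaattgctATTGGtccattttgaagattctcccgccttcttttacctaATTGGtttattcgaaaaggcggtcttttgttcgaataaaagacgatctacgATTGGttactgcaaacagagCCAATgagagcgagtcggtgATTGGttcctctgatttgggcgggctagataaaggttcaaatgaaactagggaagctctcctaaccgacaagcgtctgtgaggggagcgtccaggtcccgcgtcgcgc
Cenpe: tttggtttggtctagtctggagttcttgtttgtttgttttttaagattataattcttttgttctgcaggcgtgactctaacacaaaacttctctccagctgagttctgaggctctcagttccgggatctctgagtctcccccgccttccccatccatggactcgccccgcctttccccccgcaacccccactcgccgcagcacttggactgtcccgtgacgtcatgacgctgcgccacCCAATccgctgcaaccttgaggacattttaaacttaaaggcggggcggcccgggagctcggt

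The CCAAT share was also high in promoters of cholesterol and lipid synthesis genes (83.3% of 18) and of cilium genes (64.3% of 28) and low in those of receptor tyrosine kinases (21.6% of 37). In small lists with no gene detected in each library the share went both ways. It was 80% of 5 erythroid and 66.7% of 9 pluripotency and germ line promoters, but 20% of 5 adipocyte and 11.1% of 9 immune promoters. For the E-box CANNTG, to which Myod1 and Myog bind, the share was 72.0% of 25 promoters of the differentiation list and 68.4% of all promoters. Its case CAGCTG was in 44.0% of those 25 and 50% of 16 promoters of mature fibre genes, against 15.4% of all. Some lists of other tissues held it about as often, with 50% of 6 fibroadipogenic, 80% of 5 adipocyte and 42.9% of 7 mural promoters. Others held it less often, with 33.3% of 9 immune, 25% of 16 neural and epithelial and 14.3% of 7 endothelial promoters. No promoter of the tenocyte, glial, erythroid and pluripotency lists held it. The other case of the E-box searched was CACGTG, a sequence bound by Myc. It was in 16.1% of 31 promoters of the nucleotide, serine and polyamine synthesis list and 8.18% of all. That share was not particular to the list: CACGTG was in 10.7% of promoters of detected genes and 16.3% of the 49 with a mean level of at least 1000 TPM, in 22.2% of the 9 pluripotency and germ line promoters and in 18.2% of 11 promoters of imprinted genes and long RNAs. These promoters were not chosen at random, and members of a list can be related by descent.

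Genes that build nucleotides, serine and polyamines were all detected (36 of 36), with a median level of 73.4 TPM and a summed level between 5874 and 5982 TPM. Odc1, the first enzyme of polyamine synthesis, had levels of 1529.7, 1482 and 1275 TPM. Srm, spermidine synthase, had 395, 374 and 462 TPM. Paics, an enzyme of purine synthesis, had 801, 866 and 784 TPM, and Psat1, of serine synthesis, 431, 478 and 488 TPM. Paics, Psat1 and Srm each varied by less than 1.5-fold between the libraries. Shmt2, the mitochondrial enzyme that passes carbon from serine to folate, had 152, 195 and 324 TPM and was highest in replicate 3. Tyms, which makes thymidylate, had 69.0, 66.1 and 62.0 TPM.

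Of 32 genes of glycolysis, 21 were detected (65.6% against 49.5% of all protein-coding genes) and 8 not, with a median level of 9.44 TPM. Pgam1, phosphoglycerate mutase, had levels of 1874, 2354 and 1427 TPM. Ldha, the lactate dehydrogenase subunit of anaerobic tissue, had 943, 1150.3 and 2164 TPM, highest in replicate 3 with the scalings given for Myog. Gapdh had 674, 895 and 914 TPM, a value that its many pseudogenes make uncertain. Pkm, pyruvate kinase, had 602, 812 and 839 TPM. Slc2a1, the glucose transporter GLUT1, had 42.1, 52.0 and 96.3 TPM and was, like Ldha, highest in replicate 3. The insulin-responsive transporter gene Slc2a4 of mature muscle had 0 counts in each library. Hk2 and Hk1, hexokinases, had 30.1, 28.9 and 39.0 TPM and 18, 15.5 and 24.9 TPM. The phosphofructokinases, which commit glucose to the pathway, had 14.6, 9.29 and 10.1 TPM for Pfkp, 6.61, 6.10 and 10.0 TPM for Pfkm and 4.81, 6.54 and 7.56 TPM for Pfkl. Hk3, a hexokinase of blood cells, and Gapdhs, an isoform of sperm, were not detected, with at most 1 count in a library.

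Mitochondrial metabolism was broadly present. Of 31 genes of the tricarboxylic acid (TCA) cycle and pyruvate entry, 29 were detected, with a median level of 82.6 TPM. Sdha, the flavoprotein of succinate dehydrogenase, had levels of 289, 325 and 268 TPM and its membrane anchor Sdhd 194, 336 and 410.2 TPM. Mdh2, malate dehydrogenase, had 246, 246 and 319 TPM and Cs, citrate synthase, 213, 230.5 and 315 TPM. Sdhd was lowest in replicate 1, and Cs was highest in replicate 3. Pdk4, a kinase that blocks pyruvate entry, had 109, 111 and 97.0 TPM, above Pdk1, Pdk2 and Pdk3 in each library. Of 45 nuclear genes of the respiratory chain, 41 were detected, with a median level of 131.7 TPM. Atp5b and Atp5a1, subunits of ATP synthase, had 2865, 3008 and 4302 TPM and 1217, 1116 and 948 TPM. Cox8a and Cox6a1, the widely used forms of cytochrome oxidase subunits, had 524, 791 and 604 TPM and 443, 525 and 449.6 TPM. Their muscle forms Cox6a2 and Cox8b had 0 counts in each library, as did Cox4i2, and Cox7a1 had 1 count. For the short gene Cox8b, 0 counts allow levels of up to 4.00, 8.08 and 3.72 TPM.

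Fatty acid oxidation was lower, with 25 of 30 genes detected and a median level of 17.6 TPM. Cpt1a, which admits fatty acids to mitochondria, had levels of 124, 109 and 107 TPM, while Cpt1b, the muscle form, had 12, 1 and 10 counts. Acadl, a dehydrogenase of long chains, had 100, 82.3 and 81.0 TPM. Acsl5 and Acsl4, which activate fatty acids, had 78.8, 60.8 and 68.7 TPM and 74.5, 75.9 and 50 TPM. Cd36, the fatty acid transporter of adult muscle, and the binding proteins Fabp3 and Fabp4 had 0 counts in each library, and the regulator Ppara had 1 count. All 26 genes of cholesterol and lipid synthesis were detected, with a median level of 24.7 TPM. Insig1, a sterol sensor, had 39.2, 30.7 and 78.4 TPM and was highest in replicate 3. Fasn, fatty acid synthase, had 87.5, 81.3 and 79.5 TPM, Acly, which makes its precursor, 85.7, 81.2 and 85.9 TPM, and Scd2, a desaturase, 66.5, 50.5 and 59.9 TPM.

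Among collagens, 15 of 30 genes were detected, a share close to the 49.5% of all protein-coding genes. The median level was 0.610 TPM, against 1.74 TPM over all protein-coding genes, and the sum was 298, 310.0 and 267 TPM. Col5a2, a fibrillar chain, had levels of 79.8, 57.6 and 67.6 TPM. Col4a1 and Col4a2, the chains of the widespread basement membrane collagen, had 59.6, 65.5 and 50 TPM and 50.7, 51.3 and 47.8 TPM. These chains join in the same protein, and the ranges of their levels overlapped. Col3a1, a fibrillar collagen of connective tissue, had 36.3, 40.3 and 40.8 TPM. Of the chains of type I collagen, Col1a1 had 4, 0 and 0 counts, and Col1a2 was detected with 40, 22 and 60 counts and levels of 1.54, 1.72 and 2.16 TPM, above the background level in replicate 3 alone. Col2a1, Col4a5 and Col8a2 were not detected, with at most 1 count in a library.

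Laminins and other basement membrane genes were detected in 11 of 15 cases (73.3% against 49.5% of all protein-coding genes). Their median level was 5.57 TPM. Lamc1, the γ1 chain, had levels of 149, 119 and 122 TPM and Lamb1, the β1 chain, 52.4, 32.1 and 31.6 TPM. The α chains were lower, at 15.5, 16.9 and 14.6 TPM for Lama2, the chain of adult muscle, and 14.0, 14.7 and 13.9 TPM for Lama5. Hspg2, perlecan, had 69.4, 79.5 and 60.2 TPM and Nid1, nidogen, 32.6, 20.4 and 37.7 TPM. Of 34 other matrix genes, 24 were detected (70.6%), with a median level of 12.6 TPM. Spp1, osteopontin, a secreted phosphoprotein that binds integrins and CD44, was the most abundant gene of any matrix list, with 2275, 1878 and 1892 TPM. Its receptor gene Cd44 had 658, 645 and 849 TPM. Sparc, a collagen-binding glycoprotein, had 872, 1037 and 807 TPM. Tnc, tenascin C, had 379, 316 and 247 TPM, Thbs1, thrombospondin 1, 367, 244 and 279 TPM and Fn1, fibronectin, 74.1, 47.8 and 57.0 TPM. Decorin (Dcn) had 2, 0 and 1 counts, Tnxb 1, 1 and 0 counts, and elastin (Eln) and Gpc3 had 0 counts in each library.

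Of 34 enzymes and inhibitors that shape the matrix, 25 were detected (73.5% against 49.5% of all protein-coding genes). The median level was 6.91 TPM. Plau, urokinase, had levels of 70.1, 75 and 86.2 TPM, and Plaur, the receptor of Plau, 18.5, 11.5 and 62.1 TPM with the highest value in replicate 3. Serpinh1, the collagen chaperone HSP47, had 196, 224 and 219 TPM. The metalloproteases Adam19 and Adam12, the latter known from myoblast fusion, had 207, 168 and 213 TPM and 131, 124 and 153 TPM. Of the matrix metalloproteases, Mmp2 had 9.96, 38.8 and 20.9 TPM and Mmp14 4.27, 5.86 and 2.85 TPM. Mmp10, Timp4 and Adamts15 were not detected.

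Of 25 genes of integrins, the receptors of the matrix, 9 were detected (36% against 49.5% of all protein-coding genes). A further 14 were detected in part and 2 were not detected, and the median level was 0.422 TPM. Itgb1 carried 92.7 ± 1.96% of the summed level of the β chains (mean of libraries ± SD, n = 3). Itgav had levels of 49.1, 38.6 and 35.9 TPM, Itga5, the fibronectin receptor chain, 38.5, 41.3 and 39.0 TPM, and Itga3 22.3, 47.7 and 20.6 TPM, highest in replicate 2. With Itga7 these 3 shared most of the level of the α chains. The leukocyte chains Itgax and Itgb7 had 0 counts and 1 count.

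Of 44 receptor tyrosine kinases, 25 were detected (56.8% against 49.5% of all protein-coding genes), 14 were detected in part and 5 were not detected, with a median level of 2.42 TPM. Axl, the receptor of Gas6, had levels of 518, 484 and 506 TPM and was, with Met, far above the others. Musk, the kinase of the neuromuscular junction, had 66.1, 57.8 and 115 TPM and was highest in replicate 3. Ddr2, a collagen receptor, had 97.0, 77.6 and 62.6 TPM, and Epha2, an ephrin receptor, 62.5, 49.2 and 45.7 TPM. Egfr, the receptor of epidermal growth factor, had 42.8, 38.5 and 55.9 TPM and its relative Erbb2 12.4, 11 and 20.2 TPM. Fgfr1 had 48.9, 46.9 and 56.8 TPM and Fgfr4, a receptor typical of muscle progenitors, 15.6, 48.8 and 23.6 TPM, above Fgfr1 only in replicate 2. Igf1r and Insr, the receptors of insulin-like growth factors and insulin, had 12.5, 13.3 and 16.4 TPM and 13.0, 11.3 and 16.4 TPM. The platelet-derived growth factor receptor Pdgfrb had 0 counts in each library, as did Alk, and Epha3 and Mst1r had at most 2 counts.

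Receptors of cytokines and chemokines were detected for 21 of 31 genes (67.7% against 49.5% of all protein-coding genes), with a median level of 6.76 TPM. Il6st, the shared signal chain of the interleukin 6 family, had levels of 117, 129 and 135 TPM, while the chain specific to interleukin 6, Il6ra, had 1.22, 0.898 and 4.65 TPM and Lifr, the receptor of LIF, 10.7, 5.94 and 7.29 TPM. Tnfrsf12a, the TWEAK receptor of activated MuSCs, had 56.1, 67.3 and 133 TPM, highest in replicate 3. Ackr3 and Cxcr4, which bind the chemokine Cxcl12, had 87.0, 86.3 and 94.7 TPM and 29.2, 31.7 and 32.8 TPM. Ifnar2, an interferon receptor chain, had 48.4, 33.8 and 42.5 TPM. Cxcr3 had 0 counts.

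Of 44 growth factors and cytokines, 21 were detected and 9 were not, with a median level of 1.54 TPM. The share detected (47.7%) and the median were close to those of all protein-coding genes (49.5% and 1.74 TPM). Besides Spp1, Csf1, the macrophage growth factor, was abundant, with levels of 1242, 1382 and 1588 TPM. Pdgfa, a ligand of the platelet-derived growth factor receptors, had 371, 411 and 317 TPM, although Pdgfra and Pdgfrb were at or near 0. Angptl2 had 152, 111 and 139 TPM, Vegfa, the endothelial growth factor, 147, 88.5 and 112 TPM and Cxcl12 45.8, 64.1 and 79.4 TPM. Hgf, the ligand of Met, had 0 counts in each library, which allows levels of up to 0.200, 0.405 and 0.186 TPM. Interleukin 6 (Il6) and the chemokines Cxcl5 and Ccl7 had 0 counts as well, and Fgf2 and Fgf5 had at most 2 counts in a library. Igf2 had 7.46, 3.73 and 25.4 TPM, highest in replicate 3, and Igf1 12, 1 and 3 counts.

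Prostaglandin genes are listed because the series includes PGE2-treated cells. Of 16 such genes 7 were detected and 6 were not. The share detected (43.8%) and the median level (1.37 TPM) were near those of all protein-coding genes (49.5% and 1.74 TPM). Ptges3, a chaperone also named as a PGE2 synthase, had levels of 230.0, 326 and 260.4 TPM, well above the enzymes Ptgs1, with 20.6, 8.74 and 15.5 TPM, and Ptges2, with 7.97, 8.06 and 8.74 TPM. Of the 4 PGE2 receptors, Ptger4 had 9.31, 8.76 and 3.69 TPM and 129, 60 and 55 counts, above the background level in each library. Ptger1 had 46.5, 8.72 and 37.7 counts, and Ptger2 and Ptger3 had 1 count each, both in replicate 1. The degrading enzyme Hpgd had 1, 2 and 0 counts, and the prostaglandin D2 receptors Ptgdr and Ptgdr2 were not detected.

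Notch signaling, which holds MuSCs in the undifferentiated state, was represented by 16 of 25 genes (64% against 49.5% of all protein-coding genes). The median level was 6.50 TPM. Among receptors, Notch2 had levels of 111, 102 and 80.9 TPM, Notch1 9.06, 9.09 and 8.94 TPM and Notch3 3.62, 5.28 and 4.38 TPM. Notch2 exceeded the others in each library and held 87.7 ± 1.91% of the family's level. Rbpj, the DNA-binding factor of the pathway, had 63.8, 64.5 and 60.8 TPM and its coactivator Maml1 63.7, 69.3 and 63.2 TPM. Of the ligands, Dll1 had 17.4, 13.1 and 10.9 TPM, Jag1 12.7, 9.66 and 9.81 TPM and Jag2 10.7, 10.6 and 15.4 TPM, while Dll4 had 1 count. The target genes Hes1 and Hey1 were low, at 6.83, 8.10 and 8.33 TPM and 5.88, 2.38 and 3.01 TPM, and Hes6, which promotes differentiation, had 95.2, 101 and 56.5 TPM. Hes5, Mfng and Nrarp were not detected, with at most 2 counts in a library.

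For Hedgehog signaling, which acts through the primary cilium, 14 of 18 genes were detected (77.8% against 49.5% of all protein-coding genes). The median level was 6.42 TPM. No ligand was detected: Shh, Ihh and Dhh had 0 counts in each library, which allows Shh levels of up to 0.505, 1.02 and 0.470 TPM. Smo, the signal transducer, had levels of 86.0, 104 and 90.8 TPM, and Ptch1, the receptor and a target gene, had 7.34, 6.15 and 5.67 TPM. Among the Gli factors, Gli3, mainly a repressor, had 46.4, 64.4 and 42.8 TPM, Gli2 3.14, 7.34 and 5.33 TPM and Gli1, a target gene, 0.864, 2.33 and 1.61 TPM. Gli3 was above the others in each library. In replicate 1 Gli2 and Gli1 lay below the background level, so their order there could not be told. Gli1 lay below it in replicate 2 as well and barely passed it in replicate 3 (1.61 against 1.48 TPM). Spop and Sap30, general regulators on this list, had 194, 184 and 184 TPM and 173, 128 and 70.9 TPM. The list for intraflagellar transport and the cilium was detected in full (34 of 34), with a median level of 8.44 TPM. Ift20 had 94.0, 74.4 and 98.9 TPM, and the kinesin II subunits Kif3b, Kifap3 and Kif3a had 41.1, 78.5 and 46.3 TPM, 39.0, 48.6 and 30.8 TPM and 35.3, 31.7 and 40.0 TPM. Ift88, a core protein of the transport complex, had 9.33, 8.17 and 6.66 TPM, and Arl13b, a membrane protein of the cilium, 13.3, 2.29 and 12.3 TPM with its lowest value in replicate 2. Of the 34 genes, 18 stood above the background level in each library.

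Of 47 genes of Wnt signaling 23 were detected and 10 were not, a share detected close to that of all protein-coding genes, with a median level of 1.51 TPM. Ctnnb1, β-catenin, had levels of 374, 265 and 249 TPM, Fzd1, a receptor, 71.9, 33.1 and 62.4 TPM and Lrp6, a coreceptor, 60.8, 38.8 and 41.7 TPM. Znrf3, which removes the receptors from the surface, had 85.8, 83.3 and 76.6 TPM. Fzd7, the receptor of Wnt7a on MuSCs, had 31.1, 37.5 and 17.2 TPM, while Wnt7a had 2 counts in replicate 1 and 0 elsewhere. Axin2, a target gene, had 12, 0 and 43 counts. The antagonists Dkk1 and Dkk3 and the agonists Rspo1 and Rspo3 were not detected.

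Among 39 genes of the TGF-β and BMP pathway 30 were detected (76.9% against 49.5% of all protein-coding genes). The median level was 10.6 TPM, and the BMP targets Id2, Id3 and Id1 had the highest means. Bmpr1a, the BMP receptor kinase, had levels of 115, 91.0 and 96.4 TPM and Acvr1 62.6, 55.4 and 49.0 TPM. Tgfbr1 and Tgfbr2, the TGF-β receptors, had 20.2, 15.9 and 18.4 TPM and 10.9, 15.0 and 18.2 TPM. Smad5, which carries BMP signals, had 86.2, 67.1 and 86.5 TPM and Smad3, which carries TGF-β signals, 9.26, 8.40 and 14.1 TPM. Bmp4 had 13.2, 22.4 and 11.1 TPM and Tgfb1 4.09, 4.43 and 16.6 TPM, highest in replicate 3. Myostatin (Mstn), the inhibitor of muscle growth, had 2, 0 and 0 counts, Bmp7 had 1 count and the antagonist Nog 0 counts, which allows Nog levels of up to 0.849, 1.72 and 0.790 TPM.

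Many families were represented by a single leading member, given as its share of the family's summed level in TPM. Ccnd1 made up 98.4 ± 0.156% of the D-type cyclins, Slc2a1 93.6 ± 7.67% of the glucose transporters and Ldha 96.8 ± 1.60% of the lactate dehydrogenase subunits. Gli3 made up 88.4 ± 3.24% of the Gli factors and Fosl1, an AP-1 member known from proliferating cells, 91.7 ± 4.48% of the Fos family. Other families had shared leads: Eno1 had 57.9 ± 5.18% and Eno3 42.1 ± 5.17% of the enolases, and Hk2 62.9 ± 2.07% and Hk1 37.0 ± 2.05% of the hexokinases. Fgfr1 led Fgfr4 by 63.4 ± 12.9% to 34.1 ± 14.7% on average, and the order was turned in replicate 2. For the acetylcholine receptor, Chrna1 had 76.4 ± 2.71% of the level, and the fetal γ subunit Chrng had 1.73, 7.46 and 3.65 TPM while the adult ε subunit Chrne had 0. Actb and Actg1 held 67.8 ± 3.07% and 30.6 ± 3.80% of the actins, and Myh9, a nonmuscle myosin, 81.1 ± 3.24% of the myosin heavy chains. Counts of such relatives are uncertain where their sequences are alike, as in the actins.

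**Figure D4:**
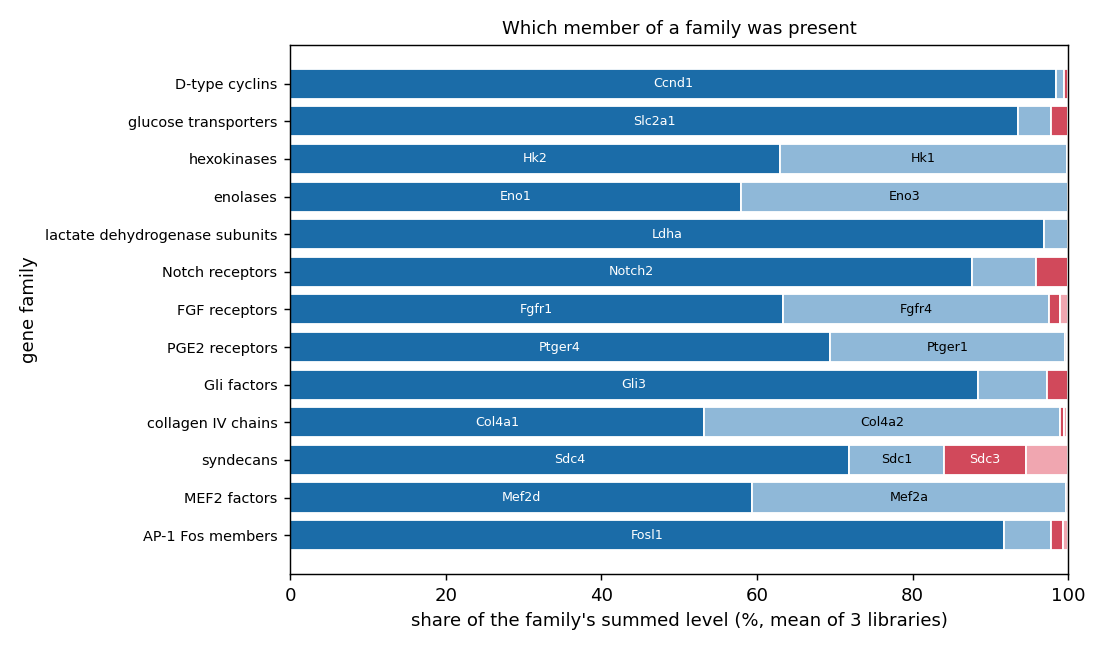
Share of each family's summed level (%, mean of the 3 young libraries) held by its members, for 13 families, with the leading members named in the bars. Ccnd1, Slc2a1, Ldha, Notch2, Gli3 and Fosl1 hold most of their family, while the hexokinases, enolases, collagen IV chains and MEF2 factors are shared between a pair of genes.

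Of 15 immune genes, 0 were detected and 9 were detected in part, and their summed levels were 16.2, 15.6 and 0 TPM. The most abundant of them by mean level, Cd68, had 23, 4 and 0 counts and stood above the background level in replicate 1, as S100a9 did in replicate 2 with 5 counts. Ptprc had 8, 0 and 0 counts, and C1qa, C1qb and Lyz2 had 0 counts in each library. Of 10 endothelial genes 2 were detected, with sums of 12.3, 7.38 and 11.9 TPM. Eng led with 5.69, 3.36 and 10.4 TPM, Cdh5 had 18, 1 and 0 counts, and Cldn5 and Tie1 had 0. Of 11 fibroadipogenic genes 3 were detected, with sums of 52.5, 50.8 and 51.6 TPM, most of it from Col3a1. The defining marker Pdgfra had 15, 0 and 0 counts and Pi16 had 0. These counts of Pdgfra, Itgam and Ptprc all fell in replicate 1.

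Of 11 mural genes 3 were detected, with sums of 53.9, 56.1 and 57.3 TPM, led by Acta2, smooth muscle actin, which myoblasts also make, at 36.0, 42.4 and 35.0 TPM. Kcnj8, also detected, had 23, 17 and 21 counts and levels of 4.33, 6.47 and 3.68 TPM, above the background level except in replicate 1. Tagln had 16, 2 and 45 counts and reached 10.1 TPM in replicate 3. Pdgfrb, the marker of pericytes, had 0 counts in each library, and Rgs5 was read in replicate 1 alone (6, 0 and 0 counts). Of 8 glial genes 4 were detected (50% against 49.5% of all protein-coding genes), with sums of 30.7, 25.6 and 50.8 TPM. Pmp22, which is not confined to glia, led at 26.5, 19.8 and 39.3 TPM and alone stood above the background level in each library. Sox10 had 6, 9 and 11 counts and levels of 0.943, 2.86 and 1.61 TPM, above the background level in replicate 3 alone. Cdh19 and Ncmap had 0 counts. Of 6 tenocyte genes 2 were detected, with sums of 54.6, 57.0 and 41.0 TPM. Scx, the transcription factor of tendon progenitors, made up most of it with 48.5, 56.1 and 31.6 TPM. Mkx, the other gene detected, had 31, 4 and 86 counts and 3.63, 0.948 and 9.38 TPM, above the background level in replicate 3 alone. Tnmd and Comp, products of tendon cells, had 0 counts, and Fmod and Thbs4 were read in replicate 1 alone. None of the 6 erythroid and 6 adipocyte genes was detected in each library, and 1 and 2 of them were detected in part, with sums of 3.22, 0 and 0.186 TPM and 3.24, 1.65 and 0 TPM. Alas2 (13, 0 and 1 counts) led the first and Retn (5, 2 and 0 counts) the second, and Hba-a1, Hba-a2, Adipoq, Cidec and Fabp4 had 0 counts.

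Genes that such cells should lack gave a further measure of stray reads. None of 11 genes of pluripotent or germ cells was detected in each library and 5 were detected in part, with sums of 6.78, 0 and 0 TPM, all in replicate 1. Nanog, the highest, had 9, 0 and 0 counts there. Of 19 neural and epithelial genes 3 were detected: Tnnt2, which myoblasts express, Krt18, a keratin of simple epithelia, with 29, 9 and 4 counts, and Syp, a synaptic vesicle protein, with 42.0, 11 and 56 counts. Cdh1 had 2, 0 and 0 counts, and Ins1, Ins2 and Krt14 had 0 counts in each library.

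**Figure D5:**
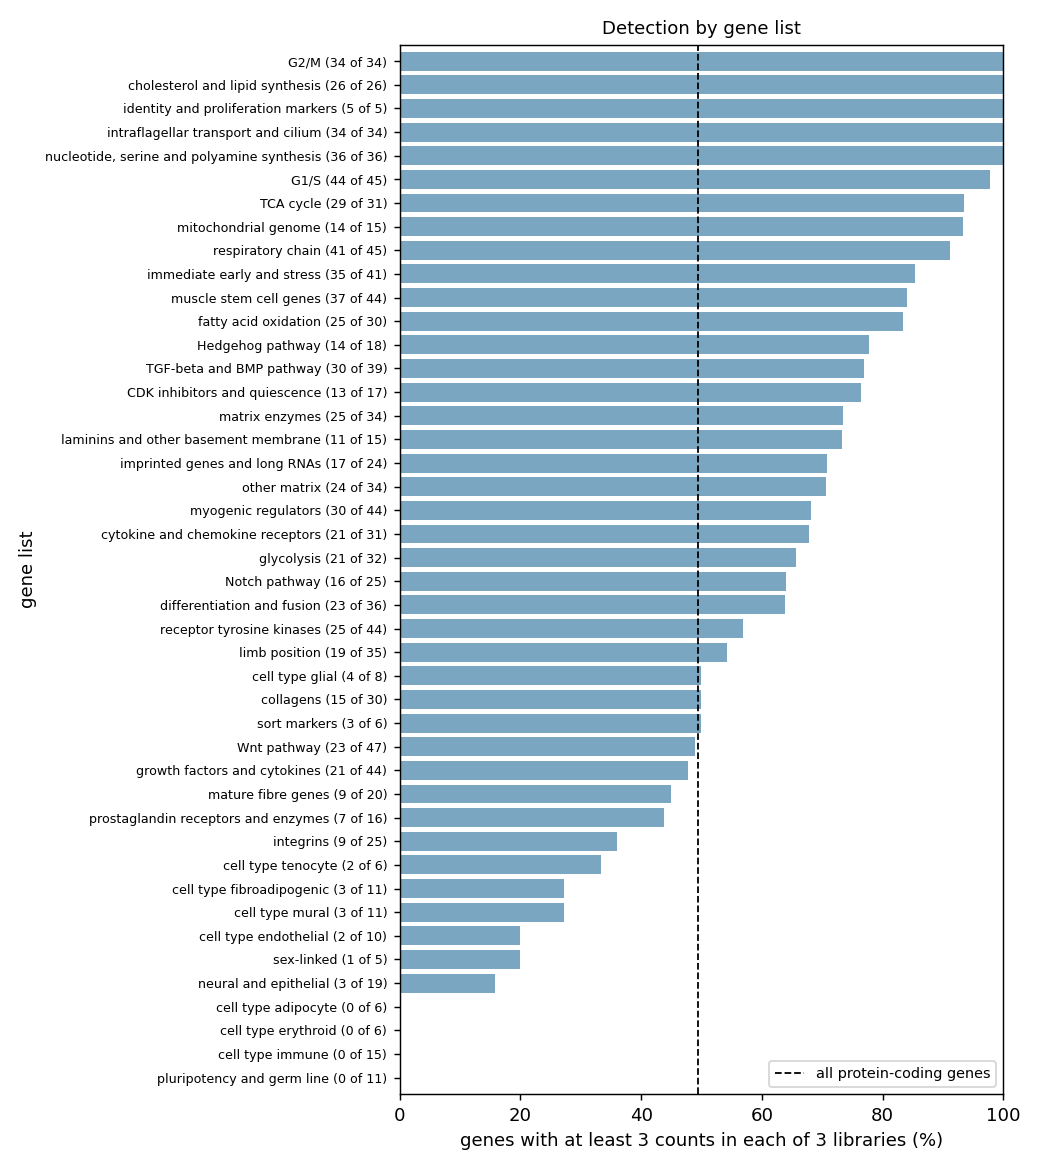
Share of each gene list (%) with at least 3 counts in each of the 3 young libraries, with the number of genes detected and listed beside each name and a dashed line for all protein-coding genes (49.5%). The G2/M, cilium, nucleotide and cholesterol synthesis lists lie at 100%, and immune, erythroid, adipocyte and pluripotency lists at 0%.

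The libraries were alike in most abundant genes and differed in some. Across 31980 genes, which are not independent replicates, Pearson's r of the log2 level plus 1 was 0.955, 0.957 and 0.952 for replicates 1 and 2, 1 and 3, and 2 and 3. Among the 5402 genes at or above 20 TPM and 10 counts, the median ratio of the highest to the lowest library was 1.47, and 83.2% of genes lay within 2-fold. A total of 207 genes differed by 3-fold or more, of which 99 were highest in replicate 3, 77 in replicate 2 and 31 in replicate 1. The biological coefficient of variation that edgeR estimated over 10049 genes was 0.330.

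Among the genes at or above 20 TPM and 10 counts, the 10 with the widest range included Mymk and 3 genes of repeat-rich regions. B3gnt2, a glycosyltransferase, had levels of 9.07, 54.6 and 1.85 TPM, a ratio of 29.5 between the highest and lowest library. Muc6, a mucin, had 79.4, 13.8 and 3.43 TPM and Zfp513, a zinc finger gene, 5.42, 3.92 and 63.1 TPM. B3gnt2 was highest in replicate 2, Muc6 in replicate 1 and Zfp513 in replicate 3. Arhgdib, a regulator of small GTPases typical of blood cells, had 3.09, 16.5 and 47.6 TPM, highest in replicate 3. Tmem254c had 58.6, 77.0 and 5.20 TPM and Ubxn6 34.4, 2.74 and 38.7 TPM. Tmem254c has near-identical neighbours, so its count is uncertain. Gm10801 (2212, 497 and 205 TPM), Gm21738 (684, 147 and 66.0 TPM) and Gm26870 (134, 33.3 and 13.0 TPM) were highest in replicate 1, as was Gm10800, and counts of such repeats are uncertain as well.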

How the data were processed

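RNA-seq libraries of young untreated MuSCs were described without a contrast or a test. Per the labels and the study's methods, the authors aligned reads to mm10 with STAR and estimated counts with RSEM or Salmon. The deposited values are expected counts per gene, not normalized. The annotation release and strandedness are not given in the sources used here. Of the values, 7.21, 4.69 and 5.71% were not whole in replicates 1, 2 and 3. Of 32976 identifiers, 31980 had a symbol and merged exon length in GENCODE M21. Levels are TPM over these lengths. Wilson intervals (95%) were computed with scipy 1.17.1. Counts were rounded for edgeR 4.0.16 and DESeq2 1.42.0 (R 4.3.3), used for scaling factors and spread only. The code was tested on simulated data. Total counts lay between 3356780 and 7198596.

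The members, lists, families and alternatives were chosen with earlier results of these data known. Named were the 20 genes with the highest mean level, the identity, sort and sex markers and the highest noncoding gene. Of each list, the 4 highest members and up to 4 not detected in alphabetical order were named, apart from a few not analysed here. The 10 genes with the widest range between libraries were taken from those at or above 20 TPM and 10 counts. Other genes were chosen after their values were seen, namely Myog, Actc1, Vcam1, Calcr, Chrdl2, Heyl, Spry1, Gas1, Tcf12, Tcf3, Tcf4, Tead1, Mef2d, Mef2a, Mef2c, Pax3, Myf6, Myh3, Myh1, Myh2, Myh4, mt-Nd4l, mt-Nd4, Rpl10, Mcm2, Mcm4, Mcm5, Mcm6, Mcm7, Mcm3, Ccne1, Ccne2, Mycn, Ccnb1, Cenpe, Cdk1, Aurkb, Plk1, Cdkn1b, Rb1, Rbl1, Rbl2, Shmt2, Tyms, Slc2a1, Slc2a4, Hk2, Hk1, Pfkp, Pfkm, Pfkl, Pdk4, Pdk1, Pdk2, Pdk3, Cpt1b, Insig1, Col1a1, Lama2, Lama5, Tnc, Thbs1, Fn1, Plau, Plaur, Mmp2, Mmp14, Epha2, Egfr, Erbb2, Fgfr1, Fgfr4, Igf1r, Insr, Il6ra, Lifr, Cxcr4, Cxcl12, Pdgfra, Vegfa, Hgf, Igf2, Igf1, Ptger1, Ptger3, Notch1, Dll1, Jag1, Jag2, Hes1, Hey1, Ptch1, Gli3, Gli2, Gli1, Ift88, Arl13b, Fzd7, Wnt7a, Axin2, Acvr1, Tgfbr1, Tgfbr2, Smad5, Smad3, Bmp4, Tgfb1, Fosl1, Fos, Eno1, Chrng, Chrne, Actg1, Myh9, Rgs5, Tbx4, Tbx5, Peg3, H19 and Egr1.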

Additional observations from a re-analysis of the deposited data

How the results depend on the processing

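Leaving out each replicate in turn moved none of the totals of genes by more than 1.5 times. For the marker means and the shares of counts, leaving out 1 of 3 libraries cannot move the mean by as much as their SD. It was therefore no check of these. Of 37 other alternatives, 31 stayed within 1.5 times for counts of genes, or within the SD of the libraries for means and shares, and 6 did not. Without the genes of the mitochondrial genome, the 100 most abundant genes held 22.6% of counts (26.8% with them). The mean level became 829 TPM for Myod1 (687) and 15.3 TPM for Cdh15 (12.6), which follows from the smaller sum over which levels are scaled. Pax7 (194 TPM from 160.3), Myf5 (118 from 98.3) and Mki67 (953 from 787) rose as well, but by less than their SD between libraries. Scaling without mt-Rnr1, mt-Rnr2 and Gm42418, chosen after seeing the data, gave 849.7 TPM for Myod1 and 15.7 TPM for Cdh15, and raised the median log2 level by 0.27, 0.27 and 0.35 in replicates 1, 2 and 3. Pax7, Myf5 and Mki67 rose here too, to 197, 122 and 968 TPM, by less than their SD. With the length of the longest transcript, Myod1 had 558 TPM. Pax7 (130 TPM), Myf5 (79.9), Mki67 (639) and Cdh15 (10.3) fell as well, by less than their SD. At 10 counts in place of 3, the number of detected genes stayed within 1.5 times for 41 of 44 lists. It went from 2 to 1 for tenocyte, from 2 to 1 for endothelial and from 4 to 2 for glial genes. With a replicate left out, a check added after seeing the data, 2 lists moved: the immune list from 0 to 3 detected genes without replicate 3, and the mural list from 3 to 5 without replicate 2. The cause was not tested. Depth limits what can be said of undetected genes, most of all in replicate 2. No paired analysis was possible because a single group was described and no test was made.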

Other observations

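The Hox genes keep a record of position along the body. Of 35 genes of limb position, 19 were detected (54.3% against 49.5% of all protein-coding genes), with a median level of 5.30 TPM against 1.74 TPM over all protein-coding genes. Hoxc10, a gene of the hindlimb and lower trunk, had levels of 164, 126 and 185 TPM and led in each library. Hoxa7 had 34.1, 47.2 and 40.8 TPM, Hoxc9 20.5, 23.2 and 10.5 TPM and Hoxa5 9.20, 47.0 and 6.90 TPM, the last highest in replicate 2. Tbx4, the T-box factor of the hindlimb, had 56, 77 and 25 counts, against 4, 0 and 3 for Tbx5 of the forelimb. Pitx1, which acts upstream of Tbx4 in the embryonic hindlimb, had 0 counts in each library. Of the Hoxb genes listed, Hoxb6 and Hoxb7 had 0 counts and Hoxb8 had 1 count, and Hoxd10 had 0.

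Imprinted genes, which are read from the copy of a single parent, and long noncoding RNAs formed a joint list of 24 measured genes, of which 17 were detected, with a median level of 18.4 TPM. Grb10, an adaptor that restrains insulin signaling, had levels of 205, 284 and 262 TPM and Peg3 242, 237 and 152 TPM. H19, a noncoding RNA next to Igf2, had 100, 132 and 228 TPM and was highest in replicate 3, where Igf2 was highest too. Phlda2 had 0 counts, as did Cdkn1c. Among 41 genes of stress and of the immediate early response, which sorting and plating can induce, 35 were detected, with a median level of 16.2 TPM. Hspa8, Hsp90aa1 and Hspa5, chaperones of cytoplasm and endoplasmic reticulum, had 2074, 1875 and 1887 TPM, 1651, 1252 and 1163 TPM and 1141, 941 and 799 TPM. Fos, a gene induced within minutes, had 0.612, 0 and 11.2 TPM, while Fosl1 had 349, 538 and 502 TPM and Egr1 220.3, 211 and 177 TPM. The level was highest in replicate 3 for 20 genes of the list, Fos included, in replicate 2 for 11 and in replicate 1 for 9, the 3 chaperones above among them. Of all protein-coding genes with a count, 4092 were highest in replicate 3, 4561 in replicate 2 and 8726 in replicate 1. Among the 5402 genes at or above 20 TPM and 10 counts, these numbers were 1628, 1675 and 2099.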
